A study of Bos taurus with 17 samples.

Results

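Cumulus cells are the granulosa cells that enclose the oocyte and feed it through gap junctions. Before ovulation the luteinizing hormone surge reaches them through EGF-like ligands, and they then secrete a matrix of hyaluronan that is held together by proteins such as TNFAIP6 and PTX3, so that the compact cumulus expands. Oocyte growth factors, among them GDF9 and BMP15, act on these cells and keep them distinct from the granulosa of the follicle wall. Expanded cumulus of adult cows was here compared with compact cumulus of prepubertal calves, and the genes of main interest were those whose change against the calves differed from their change against compact cumulus of adult cows.

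The comparison took in 11 of the 17 arrays of the series. C2 was 5 arrays of cumulus around metaphase II oocytes, collected by ovum pick up from large preovulatory follicles of non-lactating Holstein cows of 3 to 5 years after progestagen synchronization, superovulation with an FSH/LH preparation and a prostaglandin F2α injection. NC1 was 6 arrays of cumulus around prophase I oocytes from small follicles of calves of 3 to 6 months, aspirated after slaughter, and C1, the second reference, was 6 arrays of cumulus around prophase I oocytes of adult cows collected in the same way, with no hormone treatment described for either immature group. The authors class the calf oocytes as incompetent or poorly competent for development, and both the C1 and the C2 oocytes as competent. Age, puberty, hormone treatment, follicle size and way of collection all changed together between NC1 and C2 and cannot be told apart. The labels give ovarian follicles as the tissue and cumulus cells as what was separated from the oocytes. Each sample was 1 Agilent 1-colour array.

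Levels below are log2 signals with the array's median subtracted, and changes are differences of their group means, so that a change of 1 is 2-fold. Levels of different probes were not set against each other. A probe was valid when it was present on 80% of the arrays of each stage, which held for 13865 of 21475 probes. These carried 8931 named genes, each represented by its brightest valid probe. The share of probes well above background was 66.2 to 76.6% on the NC1 arrays, 73.6 to 82.8% on the C1 arrays and 72.4 to 81.3% on the C2 arrays. The C2 arrays differed more among themselves than the immature arrays did. The SD of the log2 difference between 2 arrays had a median of 1.24 among the C2 arrays and 0.59 among the NC1 arrays, and C2 replicates 1 and 5 (0.44) and 3 and 4 (0.51) lay as close as the NC1 arrays, whose closest pair was at 0.43. Each of 5 slides held 1 NC1, 1 C1 and 1 C2 array and the other slide 1 NC1 and 1 C1 array. The slides were scanned on 2 days, with C2 replicates 1, 2 and 5 in the first scan and replicates 3 and 4 in the second. In whole samples, fewer cells of a type and less RNA per cell cannot be told apart.

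Against NC1, 2154 probes were higher at C2 (15.5% of those tested) and 1741 were lower (12.6%), by limma with Benjamini-Hochberg adjustment and a threshold of 0.01. The median size of the called changes was 1.35. For 2904 probes (20.9%) every C2 array lay on 1 side of all NC1 arrays. With C2 replicates 1 and 5, and 3 and 4, averaged first, 1508 probes were higher and 1415 lower. With slides as a block, 1822 were higher and 1573 lower. The balance depended on the scaling: 55.3% of the calls were rises with median scaling, 67.3% after normexp background correction, 46.7% with quantile normalization (2152 higher, 2453 lower) and 45.6% with 75th percentile scaling (2083 higher, 2490 lower), so that the last 2 turned the balance to falls.

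Genes of the expanded matrix were among the largest rises from the calf level. TNFAIP6, which cross-links hyaluronan, lay at 1.66, 0.32, 0.77, 3.36, 1.21 and 2.24 on the NC1 arrays and at 8.83, 8.53, 9.90, 9.96 and 9.24 on the C2 arrays, so that no C2 array came near the calf range. Its rise was 7.70 ± 0.73 (SE, 207-fold, adjusted p = 1.93e-07), and it lay between 6.61 and 9.13 within the 5 slides. TNC, the matrix glycoprotein tenascin C, rose by 5.98 ± 0.33 (adjusted p = 2.63e-10) and VCAM1, a cell adhesion receptor, by 6.12 ± 0.81 (adjusted p = 9.49e-06). VCAM1 was uneven at C2, at 9.61 and 10.28 on replicates 1 and 5 and between 4.48 and 6.80 on the others. Membrane proteins stood beside them. TM4SF1, a tetraspanin-like protein, rose by 7.07 ± 0.64, CAV1, the coat protein of caveolae, by 6.92 ± 0.51, and CLDN11, a tight junction claudin, by 6.63 ± 0.51.

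The other 6 of the 12 largest rises were of signalling and metabolic genes. STAT4, a transcription factor of cytokine signalling, went from between -1.48 and -0.63 at NC1 to between 4.97 and 7.02 at C2, a rise of 7.26 ± 0.36 (adjusted p = 9.64e-11). HSD11B1, which makes active glucocorticoid, rose by 6.31 ± 0.38, and ME3, a mitochondrial malic enzyme, by 6.91 ± 0.48. The secreted proteins AHSG (fetuin A) and NTS (neurotensin) rose by 7.02 ± 0.42 and 6.64 ± 0.69. IGF2, a growth factor, was at 9.27, 5.37, 4.78, 2.92 and 9.01 on the C2 arrays and between -0.57 and 0.98 on the NC1 arrays, a rise of 5.93 ± 1.02 (adjusted p = 0.000158) that was much larger on C2 replicates 1 and 5. A second valid IGF2 probe did not follow it: its difference was -0.48 (adjusted p = 0.0807).

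The deepest falls were of genes bright in compact cumulus. ACTA1, the skeletal muscle actin, lay between 8.49 and 9.73 on the NC1 arrays and at -0.45, -0.88, 0.33, -1.69 and -0.86 on the C2 arrays. It fell by 9.75 on the log2 scale (SE 0.30, NC1 858-fold above C2, adjusted p = 1.26e-13), with a change of -10.80 to -9.09 within the slides. IHH, the Indian hedgehog ligand through which granulosa cells signal to theca, fell by 9.50 (SE 0.40, adjusted p = 9.43e-12). HSD17B1, which completes estradiol synthesis, fell by 6.08 (SE 0.41, adjusted p = 2.9e-09). SFRP4, a secreted inhibitor of Wnt signalling, fell by 6.72 and DLL4, a Notch ligand, by 5.84.

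The remaining falls among the 12 largest were DPP6 (-7.64 ± 0.22), ECRG4 (-6.85 ± 0.84), GSG1L (-6.23 ± 0.22), SERTAD4 (-6.22 ± 0.58), the hormone erythropoietin EPO (-5.85 ± 0.30), FRMD3 (-5.50 ± 0.61) and the carbonic anhydrase CA14 (-5.49 ± 0.43). Each was below the calf range on all 5 C2 arrays. ECRG4 and DLL4 split the C2 arrays: ECRG4 was at 3.95 and 4.43 on replicates 3 and 4 and between -1.47 and 0.12 on the others, and DLL4 was at 1.21 and 0.94 there and between -4.23 and -1.78 elsewhere. Replicates 3 and 4 are those of the second scan, so sample and scan cannot be told apart. SERTAD4, EPO and FRMD3 were well above background on 4 of the 5 C2 arrays, and HSD11B1 and TNC on 5 of the 6 NC1 arrays. In a probe-by-probe test with unequal spreads between the stages, VCAM1, IGF2, SFRP4, ECRG4, DLL4 and SERTAD4 lost their calls against NC1. These 24 genes were chosen for no overlap between the 5 C2 and the 6 NC1 arrays. That choice alone fixes the exact 2-sided permutation p over the arrays at 0.00433 for each, the smallest possible, so it adds no support.

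**Figure D1:**
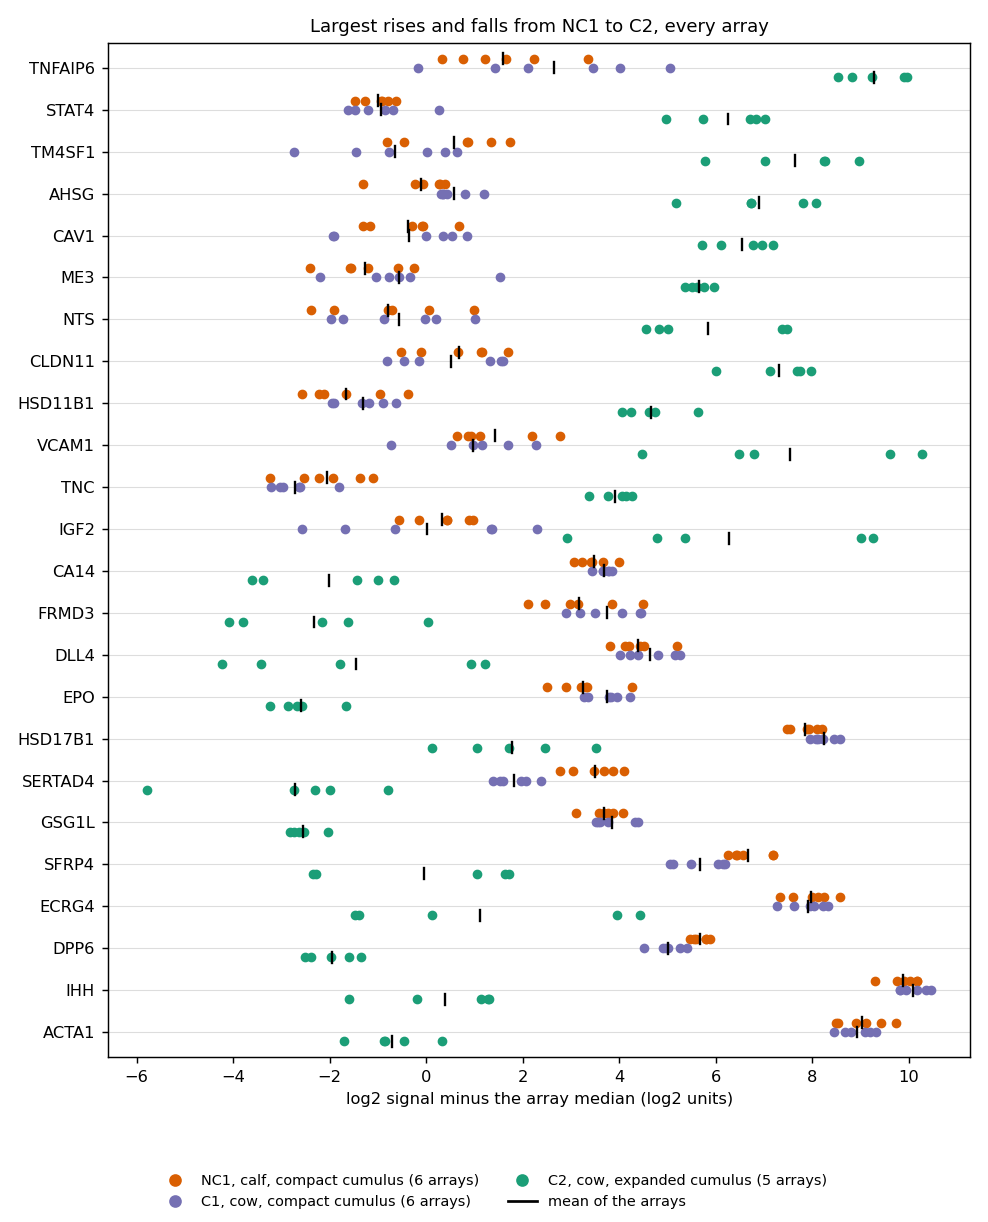
Level of the 12 genes with the largest rises and the 12 with the largest falls from NC1 to C2. Each point is 1 array on the x axis (log2 signal minus the array median), coloured by stage, and black bars are stage means. The C2 points of every gene lie clear of all NC1 points, as the choice of the genes required. The C1 points overlap the NC1 points for all genes but DPP6, SFRP4 and SERTAD4, where C1 lies lower (SERTAD4 at 1.38 to 2.37).

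Most of these changes were seen against either immature group. For ACTA1 the change was -9.75 against NC1 and -9.64 against C1, for TNFAIP6 7.70 and 6.63, and for IHH -9.50 and -9.71. These pairs of values rest on the same 5 C2 arrays. Taking the change against C1 from the change against NC1 leaves C1 minus NC1, so the test of that contrast is the test of whether the 2 changes differ. A negative difference means that a gene fell further, or rose less, against the calves than against the cows, and that its level was higher in calf than in adult compact cumulus. Over all valid probes the median size of this difference was 0.20.

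Calls taken singly overstate such differences. A probe was called against NC1 only in 780 cases and against C1 only in 778, but the difference itself passed 0.01 for 5 of the former and 1 of the latter. In all 8 probes passed (0.0577%), 7 lower and 1 higher at C1, and an unadjusted p under 0.05 was found for 1365. No probe was called against both references with opposite signs. The count of 8 rested on single arrays. It became 1 without NC1 replicate 1, 2, 5 or 6 or C1 replicate 6, 2 without C1 replicate 1, 3 or 4, 4 without C1 replicate 5, 13 without C1 replicate 2 or NC1 replicate 3, and 19 without C2 replicate 2. It was 2 with slides as a block. Fitted on the immature arrays alone, whose spread was smaller than that of the C2 arrays, 77 probes (0.555%) differed, 68 lower and 9 higher at C1.

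**Figure D2:**
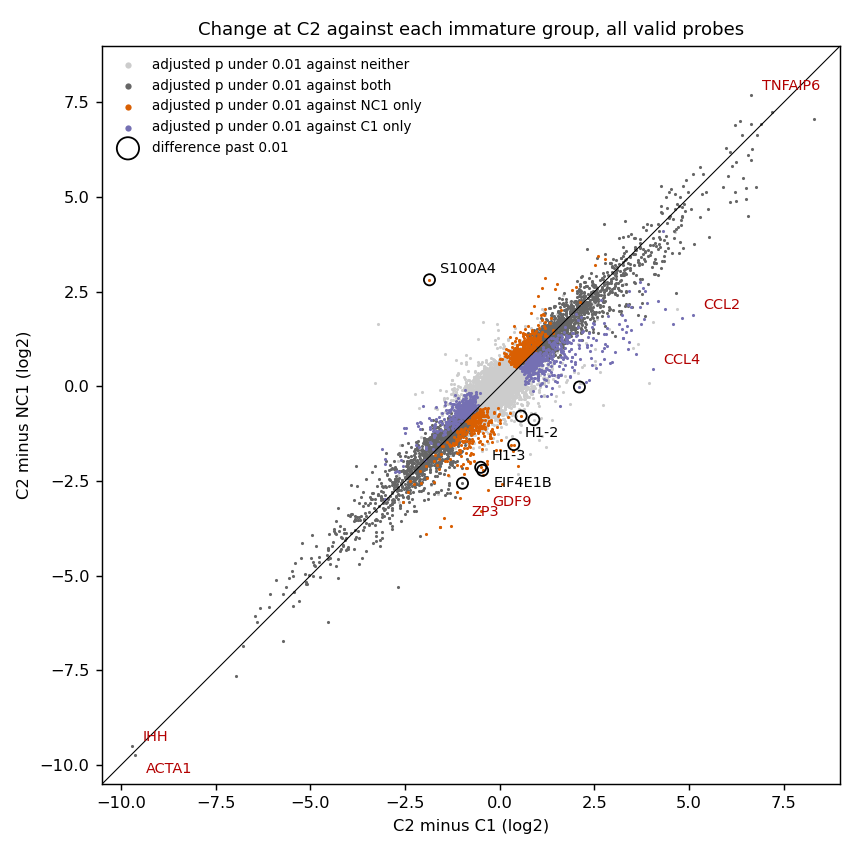
Change at C2 against C1 (x axis) and against NC1 (y axis), both in log2, for each of 13865 valid probes, coloured by which comparison called it; circles mark the 8 probes whose 2 changes differed past 0.01 and the line marks equal changes. Both axes hold the same C2 arrays, which alone places points along the line; S100A4 is the circled point above it, at 2.81 against NC1 and -1.86 against C1.

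The 8 probes are 60-mers, and bases 1 to 30 of each are given because 4 of them carry no gene symbol here. Letters are in lower case throughout, since no stretch is singled out.
EIF4E1B: ccaggcccacgcagacacagccaccaagag
H1-3: acccactaatttcaggtgaaagagcttaac
H1-2: cggccagtcaaggatccttcttttcgggaa
S100A4: gtgggcacatcagctcaccctggctcctcc
A_73_111037: agttaaagcttctttatgacagtcaagtcc
A_73_101820: tgcaatcgagctatggaagtgagagttttg
A_73_102409: ttttccctattttgaaatagtacacataat
A_73_119855: ccagtgaaatgtctcatttcctatccctct
The design of the array describes A_73_111037 as similar to VCL, A_73_101820 as similar to ZCCHC2 and A_73_102409 as similar to ZDHHC2, and gives no gene for A_73_119855.

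EIF4E1B, a cap-binding protein known from oocytes, had the smallest p of the difference. Its levels were 0.01, 0.85, -0.17, 0.56, 0.74 and 0.51 on the calf arrays, between -1.90 and -0.93 on the C1 arrays, and -1.90, -1.88, -1.58, -1.76 and -1.88 at C2. All calf arrays were thus above all adult arrays. It fell by 2.22 against NC1 (SE 0.22, adjusted p = 3.67e-07), the change against C1 was -0.45 ± 0.22 (adjusted p = 0.112), and the difference was -1.77 ± 0.21 (adjusted p = 0.00166). Within the 6 slides the difference lay between -2.37 and -0.93.

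H1-3 and H1-2 encode linker histones of the replication-dependent kind, which package chromatin between nucleosomes. H1-3 was between 5.19 and 6.75 on the calf arrays, at 4.29 ± 0.09 (SD, n = 6) at C1 and at 3.96, 3.59, 4.19, 3.46 and 3.75 at C2. Every calf array was above every adult array, compact or expanded. It fell by 2.14 against NC1 (adjusted p = 2.15e-06) and had a change of -0.50 against C1 (adjusted p = 0.114), a difference of -1.64 ± 0.24 (adjusted p = 0.00577). For H1-2 the changes were -1.54 ± 0.30 (adjusted p = 0.000452) and 0.37 ± 0.30 (adjusted p = 0.342), and their difference was -1.91 ± 0.28 (adjusted p = 0.00651). The design of the array describes the H1-2 probe as HIST1H1E, an older symbol of another member of the family, so which paralogue it measured is uncertain. The 60-mers of H1-3 and H1-2 matched at 18 of 53 bases at their best ungapped alignment.

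S100A4, a calcium-binding protein of motile and fibroblast-like cells, was the 1 probe of the 8 whose level was higher at C1 than in calves. It was between -0.55 and 1.04 on the calf arrays, at 4.24, 5.54, 5.76, 5.44, 2.51 and 5.67 on the C1 arrays, and at 4.51, -0.04, 3.46, 3.48 and 3.60 at C2. Compact adult cumulus was above all calf arrays, and 4 of the 5 C2 arrays were too. It rose by 2.81 ± 0.69 against NC1 (adjusted p = 0.00322, but 0.0102 without C2 replicate 1 and 0.0332 with the close C2 replicates averaged), while the change against C1 was -1.86 ± 0.69 (adjusted p = 0.0382). The difference of 4.67 ± 0.66 (adjusted p = 0.0055) lay between 2.73 and 6.14 within the slides.

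Of the 4 probes without a gene name, A_73_111037 was at 5.95 to 6.42 on the calf arrays, 4.09 to 5.30 at C1 and 3.14 to 4.19 at C2. It passed against both references, with changes of -2.56 and -0.98. A_73_102409 had close means in calf cumulus (2.37 ± 0.86, SD, n = 6) and at C2 (2.35 ± 0.50, SD, n = 5), and a low one at C1 (0.25 ± 0.21, SD, n = 6), so that the rise of 2.11 against C1 (adjusted p = 6.4e-05) had a counterpart of -0.02 against NC1. A_73_101820 and A_73_119855 were highest in calves, lowest at C1 and between them at C2. Their changes were -0.78 and -0.88 against NC1 (adjusted p = 0.00748 and 0.0196) and 0.57 and 0.90 against C1 (adjusted p = 0.0444 and 0.0175). The call of A_73_101820 against NC1 was lost without any of 8 arrays in turn (adjusted p up to 0.0206), with slides as a block and with the close C2 replicates averaged (0.0264), and the last also ended the call of its difference (0.0121).

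A gene could also be called against NC1 only. The 10 named genes of that class with the largest difference, among 59 with an unadjusted p under 0.01, held GDF9, the growth factor by which the oocyte instructs its cumulus, ZP3, a protein of the zona pellucida, NLRP5, a maternal-effect protein, ZAR1L, a relative of the maternal factor ZAR1, and LOC504995, which the array describes as GDF3, a relative of GDF9. GDF9 was at 1.46, 2.11, 1.12, 1.57, 1.42 and 1.72 on the calf arrays, at -0.85, 1.31, -3.26, -0.93, -1.39 and -2.35 at C1, and at -1.97, -1.73, -1.67, -1.34 and -1.95 at C2. All calf arrays were high, all C2 arrays were low, and the C1 arrays ran from below the C2 range up to replicate 2, which lay within the calf range. GDF9 fell by 3.30 against NC1 (SE 0.52, adjusted p = 6.64e-05), the change against C1 was -0.49 ± 0.52 (adjusted p = 0.482), and the difference was -2.81 ± 0.50 (adjusted p = 0.0177).

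ZP3 was at 4.37 to 5.55 on the calf arrays, 2.07 to 4.11 at C1 and at most 2.50 at C2. It fell by 2.95 against NC1 (adjusted p = 1.62e-06), with a change of -1.04 against C1 (adjusted p = 0.0178) and a difference of -1.91 ± 0.32 (adjusted p = 0.0134). LOC504995, ZAR1L and NLRP5 fell against NC1, with changes of -3.70, -3.72 and -3.71, and their changes against C1 were -1.28, -1.59 and -1.58 (adjusted p = 0.0532, 0.0176 and 0.0674). The adjusted p of their differences was 0.0382, 0.068 and 0.186. Within slides the difference was below 0 on all 6 for each of the 5 genes. The genes were chosen by that difference on the same arrays, so its common sign adds no support.

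The remaining 5 of these 10 genes were S100A4, above, and RASGRP2, an exchange factor for Rap (-2.74 against NC1, -0.31 against C1), PHACTR3, a regulator of protein phosphatase 1 (-3.89 and -1.95), TUFT1 (-1.70 and 0.36) and FOSL1, a FOS-like transcription factor (-2.34 and -0.43). TUFT1 and FOSL1 rested on single arrays: TUFT1 had an adjusted p of up to 0.0109 without C2 replicate 1 or 5, and FOSL1 lost its call without any of 12 arrays in turn, with an adjusted p of up to 0.0238. PHACTR3 was well above background on 4 of the 5 C2 arrays.

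The filter hid more of the oocyte genes than it kept. Of 15 oocyte markers on the array, 4 were valid, 3 of which fell against NC1 and none of which passed the test against C1, and the fourth, the transcription factor NOBOX, had changes of 0.25 and 0.12. Among all 8931 genes, 16% were higher and 11.5% lower against NC1, and 15.3% and 11.9% against C1. The mean level of these 4 was 1.53 to 2.39 on the calf arrays, -1.06 to 1.39 at C1 and -1.17 to -0.05 at C2. Of the 11 left out, 8 were well above background on all 6 calf arrays, 2 on all 6 C1 arrays and none on all 5 C2 arrays, and 6 on no C2 array. ZP2, of the zona pellucida, was at 3.24, 3.96, 2.82, 3.31, 3.16 and 3.65 on the calf arrays, at 1.17, 2.91, -6.93, 0.34, 0.25 and -5.92 at C1 and between -6.41 and -5.38 at C2, where it was not well above background. It was 577-fold higher at NC1 than at C2 (means of 3.36 and -5.82, adjusted p = 3.08e-05 in the fit of all probes). This fold sets each C2 array at the higher of its own signal and the lowest one well above background. It is an estimate and not a lower bound, since a signal not well above background can exceed that lowest one. ZAR1, a maternal factor, and FIGLA, which drives the zona genes, were 123-fold and 106-fold higher at NC1 on the same reckoning (adjusted p = 5.63e-05 and 7.03e-06), and BMP15 10.8-fold (adjusted p = 0.000115). In the fit of all probes, H1-8, OOSP2, ZP4, FIGLA and NLRP9 also fell against C1 (adjusted p of 1.15e-06 to 0.00923). Their changes were -4.85, -4.21, -4.72, -3.31 and -3.33. ZP2, ZAR1, PADI6, BMP15, DDX4 and DAZL did not pass against C1 there. DAZL did not pass against NC1 either (-0.43, adjusted p = 0.427). For none of the 11 did the difference of the 2 changes pass 0.01 in that fit (lowest adjusted p = 0.0101, of DDX4).

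On C1 replicates 3 and 6, ZP2, ZP4, ZAR1 and FIGLA were at -6.93 to -3.93, within or near the range of the C2 arrays, and on the other 4 C1 arrays they were between -1.49 and 3.68. These 4 transcripts were thus high on every calf array, uneven on the C1 arrays and low on every C2 array. The part of RNA from oocytes in these differences was not tested.

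**Figure D3:**
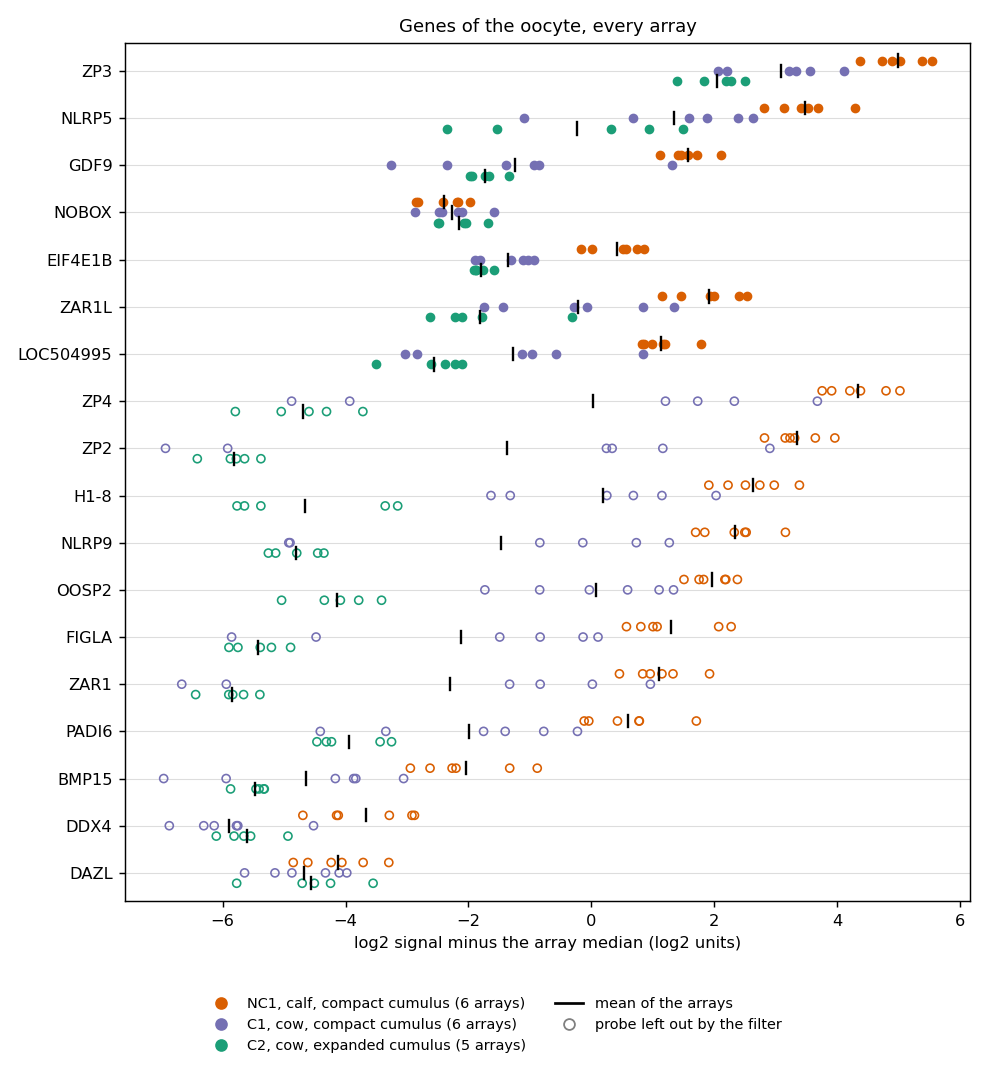
Level of the 15 oocyte markers on the array and of EIF4E1B, ZAR1L and LOC504995. Each point is 1 array on the x axis (log2 signal minus the array median), coloured by stage, bars are stage means and open points mark probes that the filter left out; for ZP2 and ZP4 the C1 points split into 4 that lie from 0.25 to 3.68 and 2 that lie with the C2 points at -6.93 to -3.93.

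Other genes were called against C1 only. Among 68 named genes called against C1 only whose difference had an unadjusted p under 0.01, the 4 largest differences belonged to CCL4, CCL2, CXCL8 and CCL8, which attract monocytes and neutrophils, each with a lower mean at C1 than in calves. CCL2 was at 0.88, 2.53, -0.68, 2.57, 1.25 and 2.69 on the calf arrays, between -3.94 and 0.56 at C1 and at 4.61, -1.29, 3.73, 4.62 and 5.52 at C2. All C2 arrays but replicate 2 were above all calf arrays, and replicate 2 was below them all. The change was 1.90 ± 1.04 against NC1 (adjusted p = 0.158) and 5.09 ± 1.04 against C1 (adjusted p = 0.000733), and their difference of -3.19 ± 0.99 did not pass (adjusted p = 0.2). With the close C2 replicates averaged, the calls of CCL2 and CCL4 against C1 were lost (adjusted p = 0.0105 and 0.0205).

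CCL4 was at 0.92, 3.04, -0.46, 2.83, 1.37 and 2.80 on the calf arrays and at 2.00, -1.70, 3.26, 3.90 and 3.57 at C2, with overlapping ranges. Its change was 0.46 ± 0.92 against NC1 and 4.04 ± 0.92 against C1 (adjusted p = 0.733 and 0.00186). For CXCL8 the changes were 1.81 and 4.82, and for CCL8 0.85 and 3.61. None of the 4 differences passed in the 3-stage fit (adjusted p of 0.0959 to 0.228). Against NC1 the changes of all 4 turned negative within the slide of C2 replicate 2, at -4.74, -3.82, -1.82 and -3.66, and were above 0 on the other 4 slides. The call of CCL8 against C1 was lost without any of 6 arrays in turn (adjusted p up to 0.0176) and with the close C2 replicates averaged (0.0426).

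Other genes of this class were ARG2, the mitochondrial arginase (0.47 against NC1, 2.55 against C1, difference -2.08, adjusted p = 0.0278), EPS8, a regulator of actin (0.62, 2.92, -2.30, adjusted p = 0.0263), and BOK, a member of the BCL2 family that promotes cell death (1.18, 3.42, -2.24, adjusted p = 0.0721). For EPS8 and BOK all calf arrays lay above all C1 arrays. SPI1, a factor of myeloid cells, had changes of 0.90 and 3.06, but the array describes that probe as its relative SPIB. GPNMB (1.00 and 3.40) and RARRES1 (0.65 and 2.96) complete the 10, and each lost its call against C1 without some single arrays (3 and 6 of the 17, adjusted p up to 0.0109 and 0.0193) and with the close C2 replicates averaged (0.028 and 0.0386).

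Leukocyte markers moved beside the chemokines. Of 19 on the array, 13 were valid. Against NC1, 4 rose and none fell, with a median of 0.99, beside the 16% of all genes that were higher. Against C1, 7 rose and none fell, with a median of 2.07, beside 15.3% of all genes. Over all valid probes the medians were 0.11 and 0.02. The neutrophil proteins S100A8 (4.82 ± 0.94 and 4.67 ± 0.94) and S100A12 (2.93 ± 0.69 and 3.04 ± 0.69), the common leukocyte antigen PTPRC (0.99 and 0.73) and the adaptor TYROBP (0.92 and 0.92) rose against NC1, and all but PTPRC rose against C1. S100A8 and S100A12 were highest on C2 replicates 3 and 4, at 5.76 and 5.69 and at 7.73 and 7.42. The macrophage genes CSF1R and CD163 had changes of -0.47 and 0.09 against NC1 and of 1.86 and 2.12 against C1, with unadjusted p of 0.0056 and 0.0039 for their differences. The mean of the 13 markers was -0.22 to 1.03 on the calf arrays, -0.83 to 0.14 at C1 and 2.05 to 2.57 on 4 of the C2 arrays. On C2 replicate 2, the low array of the chemokines, it was -0.70, below every calf array. S100A9, left out by the filter, was well above background on all 5 C2 arrays and on no immature array. The part of leukocytes in these changes was not tested.

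**Figure D4:**
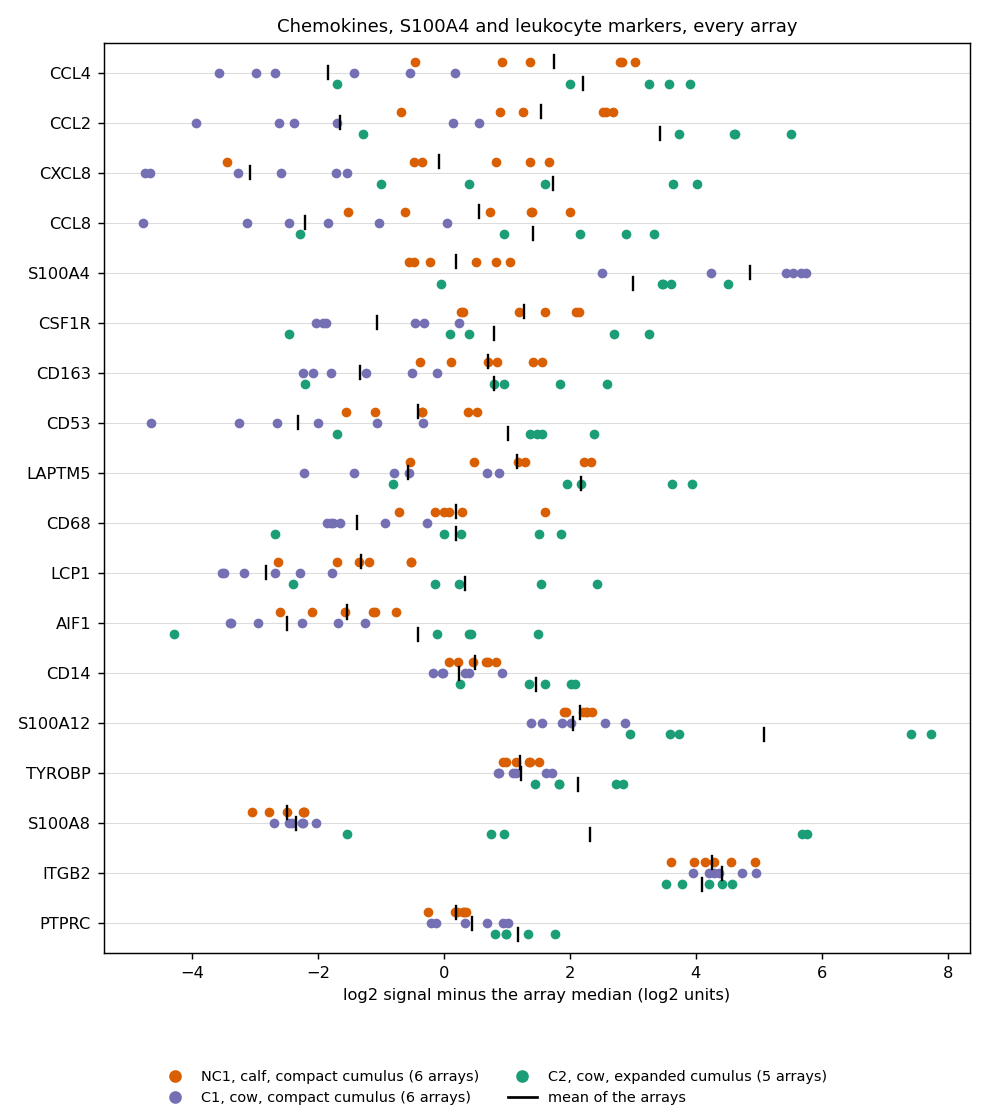
Level of 4 chemokines, S100A4 and 13 valid leukocyte markers. Each point is 1 array on the x axis (log2 signal minus the array median), coloured by stage, and bars are stage means; for the chemokines, CSF1R and CD163 the NC1 points lie above most C1 points, while for S100A8 and S100A12 both immature groups lie together below all C2 points, and C2 replicate 2 is the lowest C2 point of the chemokines, down to -2.29 for CCL8.

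Where both comparisons called a gene in the same direction, 66 named genes had a difference with an unadjusted p under 0.01, and in the 10 largest the calf level mostly lay between C1 and C2. LOC513055, which the array describes as RGS2, a brake on G-protein signalling, was at 3.16 to 4.05 on the calf arrays, -0.10 to 3.17 at C1 and 5.41 to 6.94 at C2, without overlap between calves and C2. It rose by 2.46 ± 0.43 against NC1 and by 4.64 ± 0.43 against C1, a difference of -2.18 ± 0.41 (adjusted p = 0.0278). KLF9, a Krüppel-like transcription factor, rose by 1.33 and 3.04 (difference -1.70, adjusted p = 0.0149) and CD83, of antigen-presenting cells, by 4.49 and 6.55. TMCC3 rose by 2.19 and 3.75, the kinase LYN by 1.88 and 3.66 and the pseudokinase TRIB3 by 1.44 and 2.96, the calls of LYN and TRIB3 against NC1 being lost without any of 11 and 4 arrays in turn (adjusted p up to 0.0275 and 0.0153) and with the close C2 replicates averaged (0.0338 and 0.0219). The differences of CD83, TMCC3, LYN and TRIB3 did not pass (adjusted p = 0.248, 0.0822, 0.153 and 0.0792).

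The other 4 departed from that order. PXDN, a peroxidase that cross-links basement membrane collagen, was highest in calves, and fell by 3.95 against NC1 and by 2.11 against C1. SERTAD4 likewise fell by 6.22 and 4.54. CA9, a carbonic anhydrase induced by low oxygen, was highest at C1 (2.13 ± 0.33, SD, n = 6) and fell by 2.11 against NC1 and 3.79 against C1, and VNN2, a pantetheinase, was lowest in calves and rose by 4.30 and 2.75. None of these 4 differences passed in the 3-stage fit (adjusted p = 0.0792, 0.23, 0.103 and 0.22 for PXDN, SERTAD4, CA9 and VNN2). In the fit on the immature arrays alone those of PXDN, SERTAD4 and CA9 passed (adjusted p = 0.00137, 0.00209 and 0.00415) and that of VNN2 did not (0.0518). HOXD4, a homeobox factor of body patterning, and LOC540250, described as its neighbour HOXD9, also passed that fit (adjusted p = 0.0011 and 2.1e-07). In the 3-stage fit neither difference passed (adjusted p = 0.109 and 0.0228). Chosen after their values were seen, they fell by 2.87 and 5.31 against NC1 and by 1.44 and 2.68 against C1.

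Genes of pathways known in the cumulus were counted in 13 lists. Among all 8931 genes, 16% were higher and 11.5% lower against NC1, and 15.3% and 11.9% against C1. The counts of the lists were not tested against these shares. Of 8 valid expansion genes, 5 rose and none fell against either group, with medians of 2.47 against NC1 and 3.07 against C1. PTX3 (5.12 ± 0.79 and 4.98 ± 0.79), PTGS2, the inducible prostaglandin synthase (3.82 and 4.75), and ADAMTS1, a matrix protease (3.27 and 3.69), were called in both, HAS2, the hyaluronan synthase, against C1 only (1.66 and 2.46, adjusted p = 0.0186 and 0.00123), and PTGES, which makes prostaglandin E2, against NC1 only (0.85 and 0.17, adjusted p = 0.00905 and 0.605). AREG, the EGF-like ligand amphiregulin, was left out by the filter, since it was well above background on 1 array of each immature group and on all 5 C2 arrays. Of 5 valid EGF-like ligands and receptors, BTC, betacellulin, fell by 4.44 and 4.57, and HBEGF had changes of 0.77 and 1.71, the second of them called.

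Hormone receptors had more falls than rises, while of all genes 16% were higher and 11.5% lower against NC1, and 15.3% and 11.9% against C1. Of 10 valid hormone receptors, 4 fell and 1 rose against each group: FSHR, the FSH receptor, by 3.07 and 3.55, the estrogen receptor ESR2 by 3.49 and 2.93, the oxytocin receptor OXTR by 4.01 and 4.06 and the growth hormone receptor GHR by 1.11 and 1.20, while the progesterone receptor PGR rose by 2.46 and 2.03. Of 17 steroid synthesis genes, 5 rose and 3 fell in each comparison, the mitochondrial cholesterol transporter TSPO rising by 2.71 and 2.82. CYP19A1, the aromatase, fell by 3.65 and 3.45 on average, but it was at -3.38, -1.15 and -3.74 on C2 replicates 1, 2 and 5 and at 2.34 and 2.43 on replicates 3 and 4, within the calf range of 2.05 to 3.74. Over the slides of the second scan, which hold those 2 replicates, its change against NC1 was -0.12, and over those of the first -6.14. STAR, which carries cholesterol into mitochondria, was at 7.66 and 8.19 on C2 replicates 1 and 5 and between -0.94 and 0.87 on the others, with changes of 0.09 and 2.17 that were not called. Of 17 genes of the AMH, inhibin, activin and BMP list, 2 rose and 4 fell against NC1 and 1 rose and 3 fell against C1, the extra fall being GDF9. AMH fell by 2.77 and 2.14. Of 9 IGF axis genes, IGF2 and IGFBP6 rose and IGFBP2 fell in each.

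Of 23 cholesterol synthesis genes, 11 rose and 2 fell against NC1 (median 1.18) and 12 rose and 1 fell against C1 (median 0.84). The shares of all genes were 16% higher and 11.5% lower against NC1, and 15.3% and 11.9% against C1. The mean of the list on C2 replicate 2 was 5.26, within the calf range of 5.06 to 5.63, where the other C2 arrays were at 6.26 to 6.66. The list held 3 of the genes whose difference had an unadjusted p under 0.01. INSIG1, which helps to retain the SREBP transcription factors in the endoplasmic reticulum, was at 7.19 to 8.68 on the calf arrays, 6.12 to 7.02 at C1 and 4.69 to 7.24 at C2, and fell against NC1 only (-1.43 and 0.03, adjusted p = 0.00618 and 0.961). HMGCS1, which makes HMG-CoA, rose by 1.60 and 2.78, and SC5D, a late enzyme, had changes of -0.48 and 0.59 that were not called. Of 23 cell division genes none rose and 5 fell against NC1, and 1 rose and 6 fell against C1, with medians of -1.94 and -1.998. The C2 arrays were split, with a mean of the list of 0.82 and 1.18 on replicates 1 and 5, 3.38 on replicate 2, and 4.24 and 4.46 on replicates 3 and 4, inside the calf range of 4.04 to 4.50. Here too replicates 3 and 4 are those of the second scan. On the NC1 arrays the mean of the list was 4.36, 4.04 and 4.50 in the first scan and 4.46, 4.07 and 4.23 in the second. The replication helicase subunit MCM5 fell by 2.62 and 2.75.

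The extracellular matrix list had 9 rises and 1 fall among 25 genes against NC1 and 13 rises and no fall against C1, with medians of 0.91 and 1.07. For this list and those that follow, the shares of all genes were 16% higher and 11.5% lower against NC1. Against C1 they were 15.3% and 11.9%. NID2, a basement membrane protein, rose by 5.26 and 6.76, TIMP1, a protease inhibitor, by 4.41 and 4.59, and the proteoglycan LUM by 3.64 and 3.79, while FN1, fibronectin, was called against C1 only (2.26 and 4.18, adjusted p = 0.0163 and 0.000128), as was the collagen COL1A1 (0.41 and 1.15). Junction genes numbered 1 rise and 2 falls of 11 against NC1 and 4 rises and 2 falls against C1. Of 19 immediate early genes, 1 rose and 8 fell against NC1 (median -0.87) and 1 rose and 6 fell against C1 (median -0.59), MYC falling by 4.64 and 4.78 and KLF6 rising by 1.73 and 2.17. Heat shock genes numbered no rise and 1 fall of 11 against NC1 (DNAJB1, a fall of 1.23) and 1 rise and no fall against C1, and interferon-stimulated genes no rise and 2 falls of 20, against 1 and 3.

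The marker lists bear on what the samples held, and their counts stand beside 16% of all genes higher and 11.5% lower against NC1. Against C1 the shares were 15.3% and 11.9%. Of 10 valid granulosa and cumulus markers none rose and 5 fell against NC1, and 6 fell against C1. The 10 remained above the array median on average on every array, at 7.83 to 8.70 at NC1 and 5.00 to 7.05 at C2. The alpha-globin HBA, from red blood cells, fell by 3.39 and 4.01, and was the 1 call among 3 valid markers. Of 5 endothelial markers, ENG rose by 1.56 and TEK fell by 1.61 against NC1, and CDH5, EMCN and ERG were well above background on no array. Of 9 markers of theca and stroma, LUM rose and the smooth muscle myosin MYH11 fell (-3.45 and -3.11). The defining theca enzyme CYP17A1 had changes of -0.16 and -0.25.

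**Figure D5:**
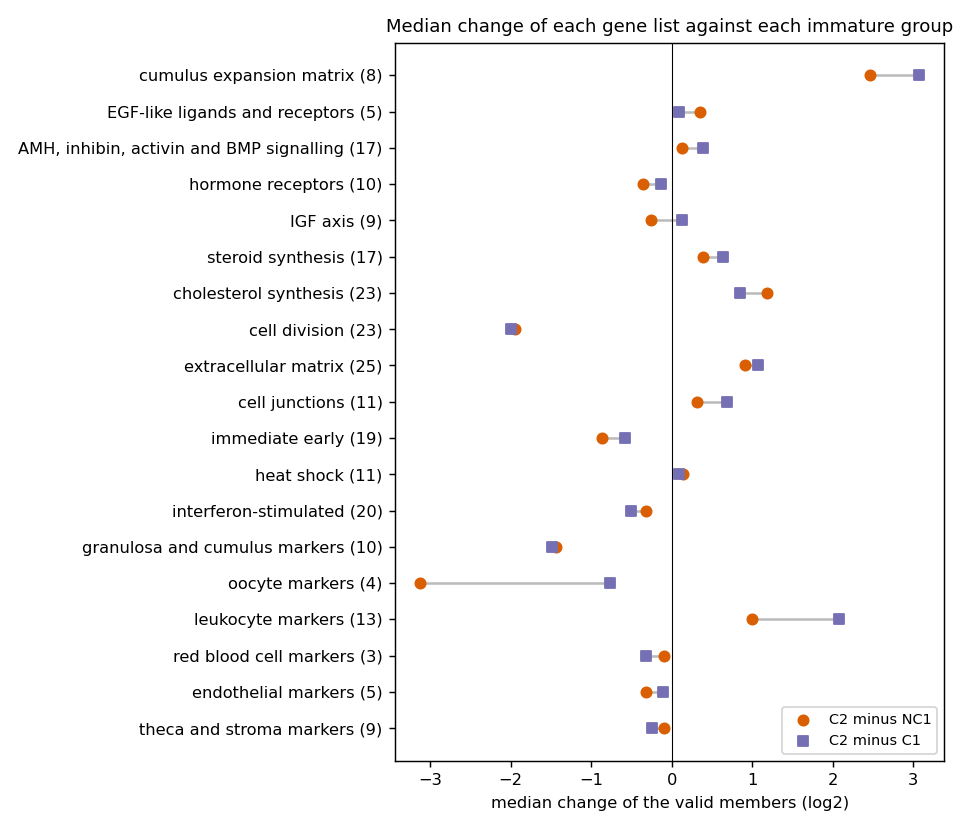
Median change of the valid members of each of 19 gene lists (number of members in brackets) on the x axis in log2, against NC1 (round points) and against C1 (squares), joined by a line. The oocyte list has the widest gap, -3.13 against -0.77, followed by the leukocyte list, 0.99 against 2.07, while the cell division and granulosa lists have nearly the same value against both; both values of a list rest on the same C2 arrays.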

How the data were processed

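Bovine cumulus RNA was measured on Agilent 1-colour arrays, 1 per sample. The authors deposited background-subtracted linear intensity values per spot from Feature Extraction 10.5.1.1, and a table of log2 values scaled by each array's median in GeneSpring. 99% of its values lay within 2.1e-06 of those computed here after removal of a constant per array. From the intensity values, log2 of clean spots was averaged per probe and each array's median over non-control probes was subtracted. Presence on an array required 50% of a probe's spots to be well above background. The genome build is not given in the sources used here.

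The 3 stages were fitted together in limma 3.58.1 (R 4.3.3), with adjustment by Benjamini-Hochberg over 13865 valid probes. Permutation tests were run in scipy 1.17.1, exact and 2-sided. The fit was tested on simulated arrays that were independent and had the same spread in each stage. It was thus not tested for the wider spread and the close pairs of the C2 arrays. Gene symbols came from a RefSeq list through the gene ID or accession of the array's design. Named genes were the 12 largest rises and 12 largest falls against NC1 without overlap, every probe past 0.01 in the difference, any gene called with opposite signs, the 10 largest differences (unadjusted p under 0.01) in each class of calls, and members of 19 lists. The rule, members and lists were chosen with earlier results of these data known. Replicate numbers were not taken as pairs: deviations of same-numbered NC1 and C2 arrays correlated at -0.07 to 0.16, above 0.1 for 2 of 5. Alternatives covered scaling, background correction, filter, spots, samples fitted, blocks, weights, the variance model and each array left out. The methods name individual animals for the calf group, so p-values measure the spread between these samples. The number of arrays limits precision.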

Additional observations from a re-analysis of the deposited data

Results flagged for a closer look

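With 60 named probes in 3 stages, 5 of 180 groups of arrays held a single array far from the rest, where chance alone gives about 1 in 20. C2 replicate 2 was the far array for S100A4, at -0.040 with the next at 3.46, and for CCL2, at -1.29 with the next at 3.73. NC1 replicate 5 was low for AHSG (-1.31, next -0.23), NC1 replicate 3 for PHACTR3 (-1.29, next 0.38), and C1 replicate 4 was high for VNN2 (1.32, next 0.71).

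The change at C2 differed between the 2 immature groups, by the test of C1 against NC1, for 8 probes. C1 minus NC1 was 4.67 for S100A4, -1.77 for EIF4E1B, -1.64 for H1-3, -1.91 for H1-2, -1.57 for A_73_111037, -1.35 for A_73_101820, -2.12 for A_73_102409 and -1.79 for A_73_119855.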

How the results depend on the processing

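The 2154 probes higher and 1741 lower at C2 than at NC1 stayed within 1.5 times of these counts under every alternative run except the model with unequal spreads, which called 679 and 729. That model lost the calls against NC1 of VCAM1, IGF2, SFRP4, ECRG4, DLL4, SERTAD4, CA9, CD83 and H1-2. The same held for FOSL1, KLF9, LYN, NLRP5, PXDN, S100A4, TRIB3, TUFT1 and A_73_101820. Against C1 it lost BOK, CCL2, CCL4, CCL8, CXCL8, GPNMB, RARRES1 and SPI1. None of the 8 differences kept its call in it. With single arrays left out they ranged from 1747 to 2491 and from 1522 to 1754. Relative to the main scaling, the median change of all valid probes against NC1 moved by -0.15 with 75th percentile scaling and by -0.11 with quantile normalization, and that of the difference by 0.14 with normexp. The count of 8 probes whose change differed between the references was the least stable: 0 with the replicate block in limma (1166 at an unadjusted p under 0.05), 1 with unequal spreads, 2 without moderation, 2 with slides as a block, 25 without a filter on probes, 77 on the immature arrays alone, 239 with array weights (a fit that stopped before full convergence), and 1 to 19 with single arrays left out. In the fit with the replicate block, 1702 probes were higher and 1386 lower at C2 than at NC1. The replicate numbers give no pairing here, since the animals differ between stages. Some values that were not called changed sign: A_73_102409 against NC1 (0.096 with close C2 replicates averaged, 0.041 with normexp, 0.019 with the replicate block, -0.24 to 0.18 with single arrays left out), GDF9 against C1 (0.023 without C1 replicate 2, and down to -0.89 without replicate 3) and FOSL1 against C1 (0.34 with array weights, 0.24 without C2 replicate 2 and down to -0.99 without replicate 5). When single arrays were dropped, EIF4E1B kept the call of its difference and the other 7 differences lost theirs without at least 7 of the 17 arrays. The cause of these shifts was not tested. Dim probes limit the comparison of oocyte genes, since 6 of 11 left out were not well above background on any C2 array.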
